A study of Drosophila melanogaster with 32 samples.

Results

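Cytochrome P450 genes of Drosophila melanogaster were followed in RNA-Seq of Smurfs and non-Smurfs. Smurfs turn blue all over when fed the dye FD&C #1, and in non-Smurfs the dye stays in the gut. The paper ascribes the blue of Smurfs to a more permeable gut and, citing other work, also to less active Malpighian tubules. Members were the genes whose symbol is Cyp followed by a number, letters and a number, with the cyclophilins left out. This gave 84 of the 17737 genes counted, namely 22 Cyp4, 24 Cyp6, 6 Cyp9, 7 Cyp12 and 4 Cyp28 genes and 21 genes of smaller families. Each sample pooled whole bodies of mated females that carry Drs-GFP, and this held for both states. There were 4 samples of either state aged 20 days, 6 aged 30 days and 6 aged 40 days. Every group held 3 samples labelled 1 day and 1 mixed sample, and each group of 30 or 40 days also held 2 samples labelled 5 hours. In Smurfs these labels give the time since the transition to the Smurf state, and the mixed samples are of unknown delay. Non-Smurf samples carry the labels of the Smurfs collected with them and had made no transition. The mixed pair of the 30-day groups (M-7 from non-Smurfs, M-10 from Smurfs) is labelled as 32 days old.

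P450s are haem enzymes that insert an oxygen atom into their substrate. Insect microsomal P450s draw electrons from the reductase Cpr and mitochondrial P450s, such as the Cyp12 family, from ferredoxin. Members of the Cyp6, Cyp9, Cyp12 and Cyp28 families are known for the breakdown of plant toxins and insecticides in gut, fat body and Malpighian tubules, while others act on fatty acids, cuticular hydrocarbons or the moulting hormone ecdysone.

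Total counts per sample were between 12164198 and 22798065. The marker lists of midgut, fat body, Malpighian tubules, eye, oenocytes, haemocytes, germline and eggshell were all detected, and 4 markers of male accessory gland and testis summed to at most 0.221 CPM (the count scaled to library size with TMM normalization) in any sample. Over the 1000 most variable genes, each sample was compared with the mean profile of the Smurfs and of the non-Smurfs of its age. At 20 and 30 days, 0 samples lay nearer to the other state. At 40 days, 3 Smurfs (5h-c8, 5h-c7 and 1d-p) lay nearer to the non-Smurf mean, and 3 non-Smurfs (5h-c6, 5h-c5 and 1d-o) nearer to the Smurf mean. Markers of several tissues differed between the states. Over all ages 8 of 8 midgut and 5 of 5 fat body markers were lower in Smurfs at an adjusted p under 0.05 (edgeR), against 11.3% of all genes. So were 2 of 3 haemocyte and 5 of 10 eggshell markers. The median log2FC (log2 fold change, Smurf over non-Smurf) of each whole list was -0.91, -1.34, -0.98 and -1.86 in that order. All 3 haemocyte and all 10 eggshell markers had a log2FC below 0. The midgut list held only trypsin and Jonah protease genes, and the paper reports members of both kinds as lower in Smurfs. The other lists had 1 of 5 Malpighian tubule markers, 1 of 3 oenocyte markers, 1 of 4 germline markers and 0 of 5 eye markers lower at that threshold. The fat body list held the yolk protein genes Yp1, Yp2 and Yp3 with apolpp and Lsp2. Whether the markers of a list are made in that tissue alone was not tested. In these whole flies, fewer cells of a type and less RNA per cell cannot be told apart.

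The P450 genes together took between 0.503% and 0.952% of the counts of a sample. A single gene held most of them. Cyp4g1, the oenocyte enzyme that makes the hydrocarbons of the waterproofing cuticle, took between 50.7% and 72.2% of the P450 counts. Per length of exon, Cyp4g1 stood at 2058 ± 435 CPM per kb (SD, n = 32), followed by Cyp6a19 at 248 ± 30.2, Cyp9b2 at 131 ± 42.4, Cyp6d5 at 98.5 ± 24.8 and Cyp9f2 at 83.3 ± 15.1. The difference between Cyp6d5 and Cyp9f2 was smaller than the SD of Cyp6d5, and that between Cyp9b2 and Cyp6d5 smaller than the SD of Cyp9b2, so these neighbours in the order are not set apart by their spread. At the other end, Cyp313a5 and Cyp313a2 had at most 2 counts in any sample and were not detectable at this depth, and 76 of the 84 members had at least 1 count in every sample. Cyp12d1-p and Cyp12d1-d, near-identical neighbours known to be induced by insecticides, stood at 0.258 and 0.132 CPM per kb. Reads that match both could have been split between them or left out of the counting, so both levels are uncertain.

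Smurfs were compared with non-Smurfs over all ages, 16 samples against 16, with edgeR's quasi-likelihood test, and a gene was called where its Benjamini-Hochberg adjusted p, taken across every gene that was tested, was below 0.05. The filter on low counts kept 73 members. The 11 left out were Cyp6a16, Cyp303a1, Cyp6t2Psi, Cyp6a15Psi, Cyp12d1-d, Cyp316a1, Cyp313a5, Cyp313a2, Cyp4c3, Cyp28c1 and Cyp308a1, of which Cyp6t2Psi and Cyp6a15Psi are pseudogenes. Of the 73, 34 were called, or 46.6%, against 22.7% of all 10052 genes tested. They went both ways, 15 higher (11.4% of all genes were higher) and 19 lower (11.3% of all genes were lower) in Smurfs, and the median log2FC of the members was -0.07 against -0.01 for all genes tested. Cyp4 genes were mostly lower, with 3 of 21 higher, 11 lower and a median of -0.33. In the Cyp6 family 6 of 21 were higher and 3 lower, with a median of 0.05. The remaining families had 2 of 6 Cyp9 genes higher and 1 lower, 1 of 6 Cyp12 genes higher and 1 lower, 1 of 3 Cyp28 genes higher and 0 lower, and 2 of 16 others higher and 3 lower.

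**Figure D1:**
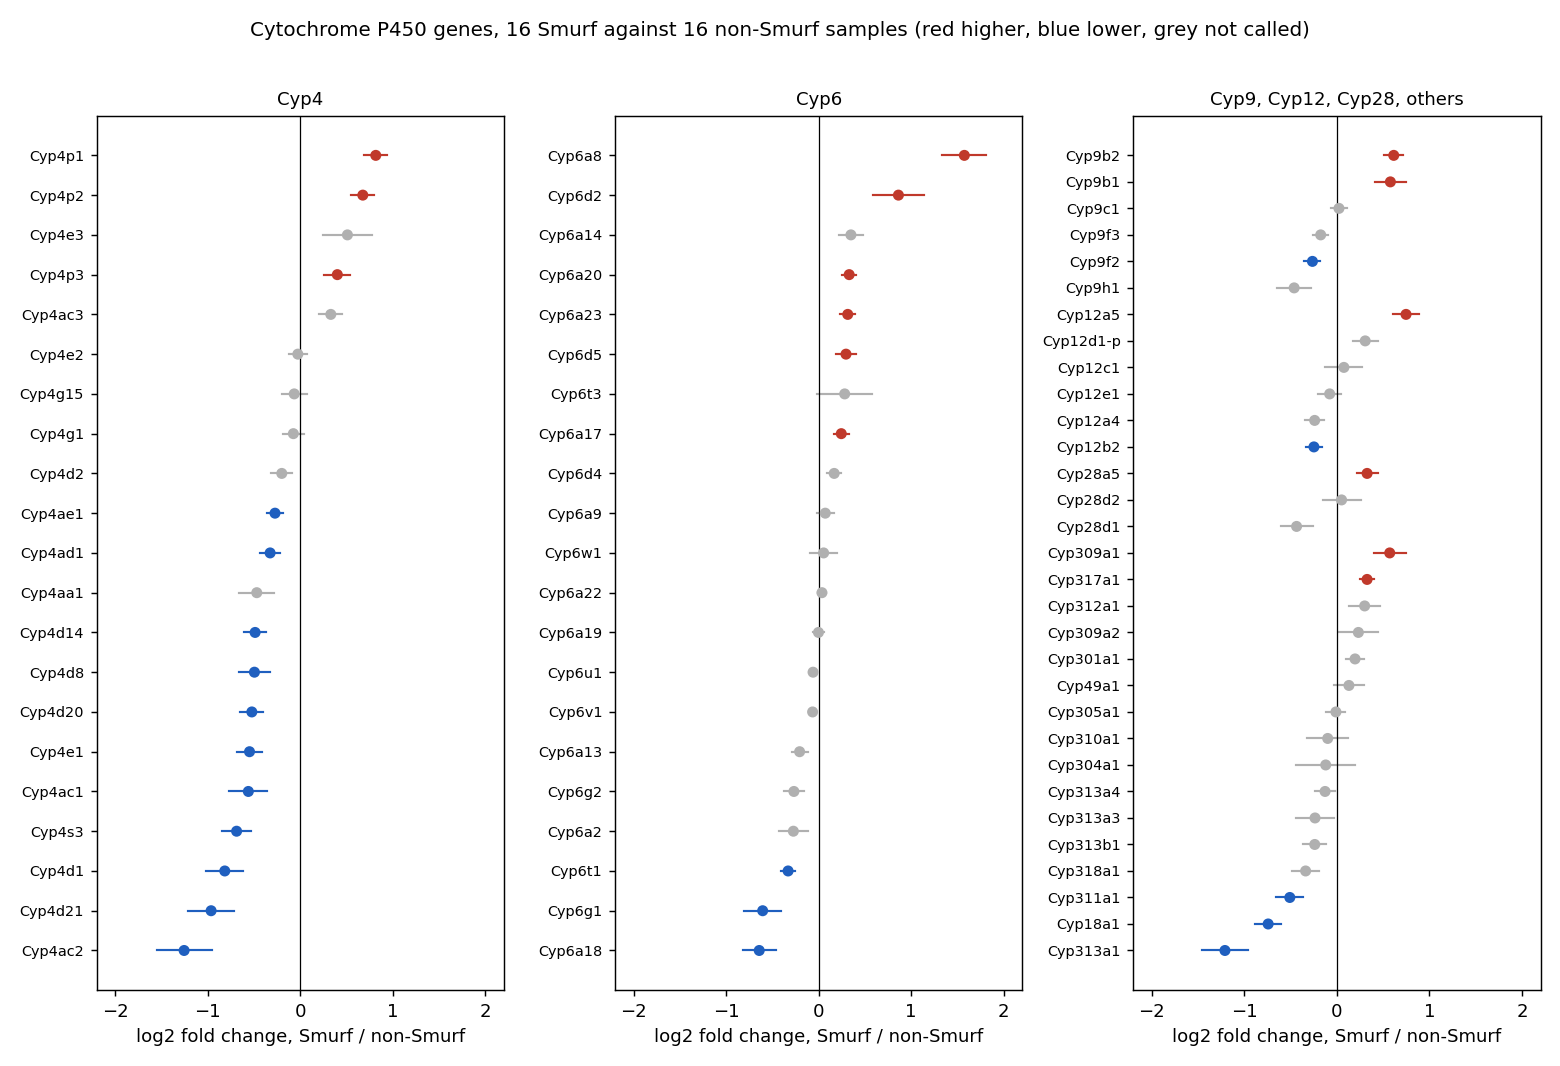
log2 fold change of the 73 tested P450 genes in 16 Smurf against 16 non-Smurf samples (x axis), by family, with bars for the SE. Red points are called higher, blue points called lower and grey points not called, and the Cyp4 panel holds 11 blue and 3 red points.

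Cyp6a8 had the largest increase. This Cyp6 gene, known to be induced by xenobiotics such as barbiturates and caffeine, lies on chromosome 2R at 14887171 to 14889010 of the BDGP6 assembly. Its level in non-Smurfs was between 1.21 and 3.77 CPM with a median of 2.64, and in Smurfs between 2.67 and 17.5 with a median of 5.83. All 16 Smurfs were above the non-Smurf mean and 12 of them above the highest non-Smurf. The log2FC was 1.57 ± 0.24 (SE, adjusted p = 3.5e-05, edgeR).

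The Cyp4p genes rose as a whole cluster. Cyp4p2, Cyp4p1 and Cyp4p3 follow each other on 2R between 9237512 and 9244410, and all were called higher. Cyp4p1 was between 19.7 and 52.8 CPM in non-Smurfs, with a median of 29.0, and between 35.9 and 84.6 in Smurfs, with a median of 53.0. Every Smurf was above the non-Smurf mean, although the ranges overlapped. The log2FC of Cyp4p1 was 0.81 ± 0.12 (adjusted p = 3.7e-05), that of Cyp4p2 0.67 ± 0.12 (adjusted p = 0.00027) and that of Cyp4p3 0.40 ± 0.14 (adjusted p = 0.036). The call of Cyp4p3 was lost in 10 of 32 fits that each left out a sample, with an adjusted p of at most 0.059.

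Cyp9b2 and its neighbour Cyp9b1 were also higher together. Cyp9b2 had a median of 171 CPM in non-Smurfs, with a range of 134 to 216, and of 252 in Smurfs, with a range of 170 to 405. Of the 16 Smurfs, 11 exceeded every non-Smurf. The log2FC was 0.61 ± 0.10 for Cyp9b2 (adjusted p = 8.9e-05) and 0.58 ± 0.17 for Cyp9b1 (adjusted p = 0.012), whose exons overlap esn on the other strand.

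Cyp12a5, a mitochondrial P450, was between 11.05 and 30.1 CPM in non-Smurfs with a median of 19.0, and between 22.8 and 73.1 in Smurfs with a median of 31.2. Each of the 16 Smurfs lay above the non-Smurf mean, and the log2FC was 0.75 ± 0.14 (adjusted p = 0.00038). Cyp6d2, known for resistance to camptothecin, had a log2FC of 0.86 ± 0.27 (adjusted p = 0.021), with Smurfs between 6.28 and 43.6 CPM and non-Smurfs between 4.92 and 20.3. Of the 16 Smurfs, 7 exceeded the highest non-Smurf and 6 were below the non-Smurf mean. Cyp309a1 had a log2FC of 0.57 ± 0.17 (adjusted p = 0.017), and 14 of the 16 Smurfs exceeded the mean of the non-Smurfs.

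Among the members that were lower, Cyp4ac2 had the largest decrease. It was between 6.78 and 31.0 CPM in non-Smurfs, with a median of 14.8, and between 1.60 and 24.8 in Smurfs, with a median of 5.16. Smurfs were below the non-Smurf mean in 15 of 16 samples and below the lowest non-Smurf in 10. The log2FC was -1.26 ± 0.30 (adjusted p = 0.0029).

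Cyp313a1 fell by 1.21 ± 0.25 on the log2 scale (adjusted p = 0.00074). Its range was 8.18 to 36.9 CPM in non-Smurfs and 2.24 to 18 in Smurfs, and all 16 Smurfs were below the non-Smurf mean. Cyp18a1 inactivates ecdysone, and its range went from 14.5 to 34.1 CPM in non-Smurfs (median 24.3) to 7.57 to 27.4 in Smurfs (median 12.9). With 11 of 16 Smurfs below the lowest non-Smurf, its log2FC was -0.74 ± 0.14 (adjusted p = 0.00039). Of the P450s of ecdysone synthesis that carry other names, 3 of 6 were tested, and spo and sad, which act early and late in that pathway, were lower with log2FC of -1.25 (adjusted p = 0.0075) and -1.09 (adjusted p = 0.0048). shd, which makes the active hormone, had a log2FC of -0.04 (adjusted p = 0.91). spo and sad are known to act in ovarian follicle cells, and the summed eggshell markers of those cells ranged from 27 to 3637 CPM in non-Smurfs and from 1.35 to 1232 in Smurfs. Their part in the result was not tested.

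The Cyp4d genes formed the largest block of decreases, with Cyp4d21 at a log2FC of -0.96 ± 0.25 (adjusted p = 0.006), Cyp4d1 at -0.82 ± 0.20 (adjusted p = 0.0038), Cyp4d20 at -0.52 ± 0.13, Cyp4d8 at -0.50 ± 0.17 and Cyp4d14 at -0.49 ± 0.12. Cyp4d21, known as sex-specific enzyme 1 for its role in males, was low, between 0.487 and 4.56 CPM in non-Smurfs. Cyp4d2 was the Cyp4d gene without a call over all ages, with -0.20 ± 0.11 (adjusted p = 0.21). Cyp6g1, known for DDT resistance, was between 124 and 243 CPM in non-Smurfs, with a median of 172, and between 39.3 and 291 in Smurfs, with a median of 86.4. Its log2FC was -0.61 ± 0.20 (adjusted p = 0.028), and 9 of 16 Smurfs were below every non-Smurf. Further calls were Cyp4s3 at -0.69 ± 0.15, Cyp6a18 at -0.64 ± 0.18 and Cyp4e1 at -0.55 ± 0.14. Cyp4ac1, at -0.56 ± 0.20 (adjusted p = 0.044), lost its call in 18 of 32 fits without a sample. Exons of Cyp6g1 overlap Cyp6g2, those of Cyp4s3 Rab3-GEF and those of Cyp4e1 the maltase Mal-A1, each on the other strand. The same holds for Cyp6d2 and nsr, Cyp317a1 and Kank, Cyp4d14 and ND-B14.5A, Cyp28d1 and CG7742, Cyp6t3 and CG8858, Cyp4aa1 and Strn-Mlck, Cyp12b2 and Jabba, and Cyp301a1 and Ak6. Since the strand setting of the counting is not stated, the reads of such pairs cannot be told apart here.

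**Figure D2:**
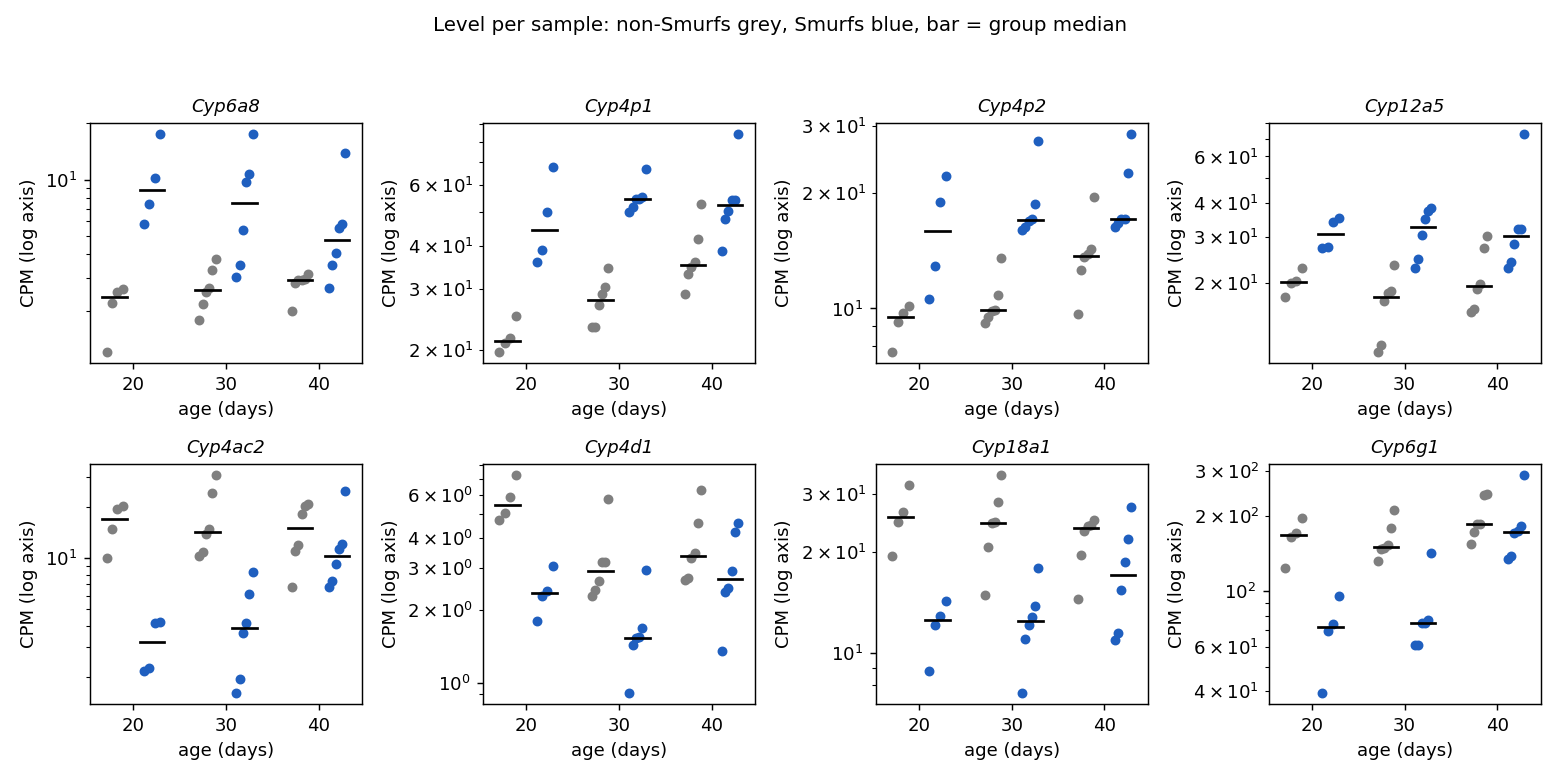
CPM per sample (log axis) of 8 P450 genes by age, with non-Smurfs in grey, Smurfs in blue and a bar at the group median. In the top row all Smurfs of 20 days lie above the non-Smurfs of that age, in the bottom row all lie below them, and at 40 days the ranges overlap.

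Not all members with a known role were called over all ages. Cyp4g1 was between 3544 and 6176 CPM in non-Smurfs, with a median of 4677, and between 2527 and 6422 in Smurfs, with a median of 4723, and its log2FC was -0.08 ± 0.11 (adjusted p = 0.67). Cyp6a2, another xenobiotic-induced gene, had -0.27 ± 0.15 (adjusted p = 0.21), and Cyp12d1-p 0.31 ± 0.13 (adjusted p = 0.096). Of the partners that hand electrons to P450s, 0 of 5 were called by edgeR and 1 had an unadjusted p under 0.05. Cpr had a log2FC of -0.08 (adjusted p = 0.29) and the ferredoxin Fdx1 0.14 (adjusted p = 0.083). In haem synthesis 2 of 8 genes were higher, the first enzyme Alas with a log2FC of 0.33 and the last, FeCH, with 0.14, a share of 25% that is near the 22.7% of all genes called. Of 6 regulators of detoxification genes, 1 was called, Keap1, which holds the factor cnc in check, with 0.26 (adjusted p = 0.00053), while cnc itself had 0.05 (adjusted p = 0.37). That share, 16.7%, is below that of all genes.

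Many P450 genes lie next to each other, 45 of the 84 in 16 arrays of neighbouring members. Over all ages, 5 arrays held called members that were all higher, 7 held called members that were all lower, 4 held none, and 0 held both. An array with 1 called member, such as that of Cyp309a1 and Cyp309a2, could not hold both. How often other neighbouring genes share a direction was not computed. The longest array has 8 members on 2R from 14871366 to 14903095. There Cyp6a8 was higher together with Cyp6a20 at 0.33 ± 0.07, Cyp317a1 at 0.33 ± 0.07, Cyp6a23 at 0.31 ± 0.08 and Cyp6a17 at 0.24 ± 0.08. Cyp6a17 is known for temperature preference and Cyp6a20 for aggression. The other members of the array had log2FC of 0.04 for Cyp6a22, 0.07 for Cyp6a9 and 0.00 for Cyp6a19, the most abundant of them. Cyp6a9 and Cyp6a19 overlap each other on opposite strands.

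**Figure D3:**
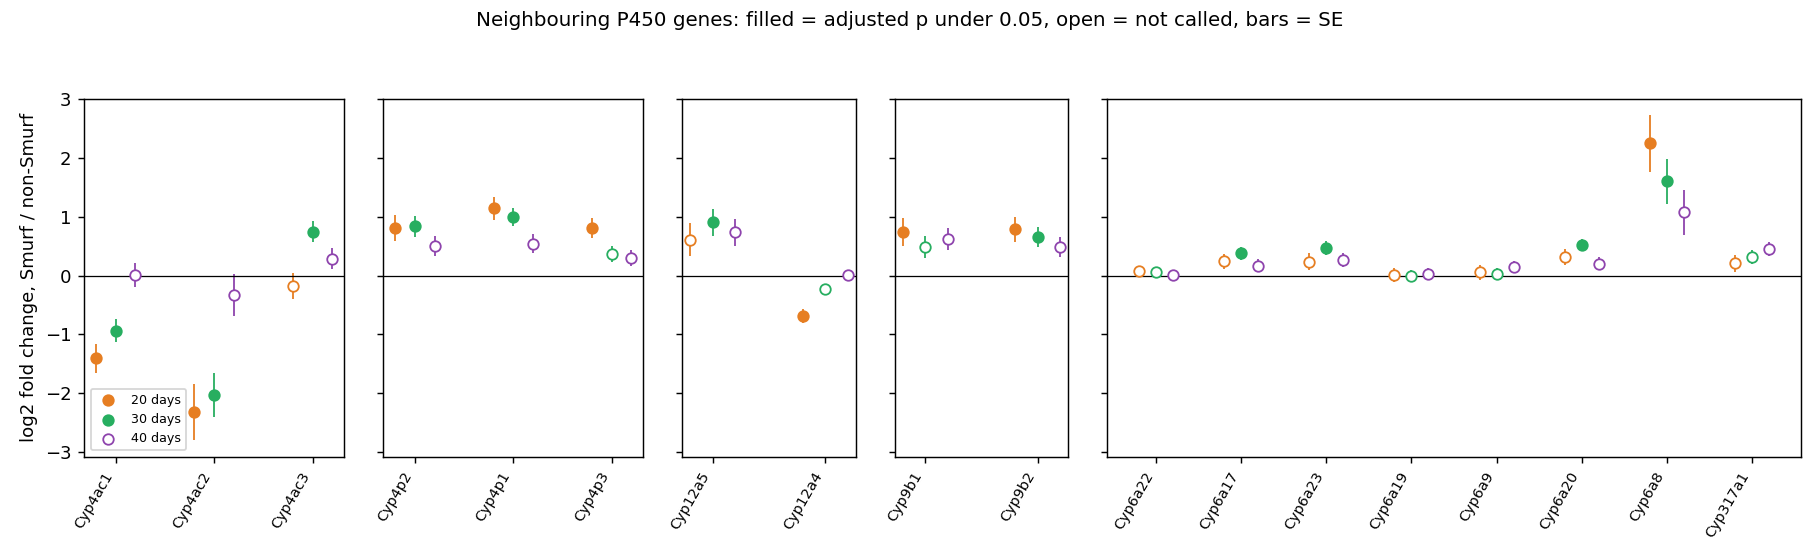
log2 fold change of Smurfs over non-Smurfs at 20, 30 and 40 days (y axis) for members of 5 arrays in their order along the chromosome, with bars for the SE. Filled points are called and open points are not, the Cyp4p points lie above 0 at each age, and every 40-day point is open.

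At 20 days the comparison of 4 Smurf with 4 non-Smurf samples was made within a model of 6 groups. Of 76 members tested, 30 were called, or 39.5%, against 11% of all 10529 genes, with 7 higher (4.38% of all genes were higher) and 23 lower (6.64% of all genes were lower). The median log2FC of the members was -0.33, against 0.01 for all genes tested. Cyp4 genes were again mostly lower, with 3 of 21 higher and 11 lower at a median of -0.56. Midgut markers summed to 2364 to 3386 CPM in these non-Smurfs and 896 to 1584 in these Smurfs, and fat body markers to 16508 to 26494 and 2503 to 5812, and their part in the result was not tested.

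The largest decrease at 20 days was that of Cyp4ac2, with 10.0, 14.8, 19.5 and 20.3 CPM in the non-Smurfs and 2.17, 2.25, 4.16 and 4.20 in the Smurfs. The groups did not overlap, and the log2FC was -2.32 ± 0.48 (adjusted p = 0.0026). Its neighbour Cyp4ac1 had 18.8, 20.9, 28.9 and 29.2 CPM in non-Smurfs and 7.43, 9.12, 9.77 and 10.4 in Smurfs, a log2FC of -1.41 ± 0.25 (adjusted p = 0.0013). Cyp4ac3 of the same array was not called, with -0.17 ± 0.22 (adjusted p = 0.70).

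Cyp12a4, known for resistance to the insecticide lufenuron, had 94.2, 101, 107 and 109 CPM in non-Smurfs of 20 days and 52.5, 61.5, 67.2 and 73.8 in Smurfs. Its log2FC was -0.69 ± 0.12 (adjusted p = 0.001), again without overlap. Its neighbour Cyp12a5 had 17.8, 20.1, 20.4 and 22.9 CPM in non-Smurfs and 27.3, 27.4, 34 and 35.1 in Smurfs, also without overlap but in the other direction. At 20 days Cyp12a5 was not called (log2FC 0.61 ± 0.28, adjusted p = 0.18), while at 30 days it was (0.90 ± 0.23, adjusted p = 0.0087). A Bari1 element overlaps Cyp12a4 on the same strand. Cyp6g1 had 124, 164, 170 and 196 CPM in non-Smurfs and 39.3, 69.7, 73.8 and 95.8 in Smurfs (log2FC -1.23 ± 0.26, adjusted p = 0.0028).

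Cyp6a18 had 20.4, 21.5, 21.5 and 27.2 CPM in non-Smurfs of 20 days and 6.42, 9.08, 10.1 and 14.6 in Smurfs, with a log2FC of -1.17 ± 0.23 (adjusted p = 0.002). Cyp9f2, one of the most abundant members per length, had 148, 167, 170 and 179 CPM in non-Smurfs and 93.4, 98.1, 115 and 127 in Smurfs (-0.62 ± 0.13, adjusted p = 0.0024). For Cyp18a1 the values were 19.6, 24.7, 26.4 and 31.8 CPM in non-Smurfs and 8.81, 12.1, 12.9 and 14.3 in Smurfs (-1.09 ± 0.26, adjusted p = 0.0084). All of these separated the states at 20 days. Cyp6a2 did so too, with 51.3, 52.2, 61.9 and 62.1 CPM in non-Smurfs and 21.9, 28, 32.1 and 45.0 in Smurfs, a log2FC of -0.84 ± 0.27 (adjusted p = 0.038) that lost its call in 7 of 32 fits without a sample. Cyp4g1 was lower in each of the 4 Smurfs than the non-Smurf mean, with a log2FC of -0.51 ± 0.20 that was not called (adjusted p = 0.099).

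In the other direction, Cyp6a8 had 1.21, 2.22, 2.53 and 2.61 CPM in non-Smurfs of 20 days and 5.82, 7.40, 10.2 and 17.5 in Smurfs, with a log2FC of 2.25 ± 0.48 (adjusted p = 0.0034). Cyp4p1 followed with 19.7, 20.9, 21.6 and 25.1 CPM against 35.9, 38.9, 50.2 and 67.9 (log2FC 1.14 ± 0.20, adjusted p = 0.0012). Cyp4p3 had 16.1, 16.1, 18.7 and 19.5 CPM in non-Smurfs and 24.3, 24.5, 36.3 and 38.6 in Smurfs (log2FC 0.81 ± 0.17, adjusted p = 0.0027). In these genes the states did not overlap. Cyp309a1 had 8.38, 10.4, 11.5 and 11.6 against 14.4, 16.9, 17.7 and 24.3 CPM, with a log2FC of 0.81 ± 0.22 (adjusted p = 0.015).

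At 30 days 26 of 76 members were called, or 34.2%, against 14.8% of all genes, with 10 higher (8.22% of all genes were higher) and 16 lower (6.61% of all genes were lower). At this age 8 of 8 midgut and 5 of 5 fat body markers were lower in Smurfs. Midgut markers summed to 1651 to 3843 CPM in non-Smurfs and 945 to 2136 in Smurfs, and fat body markers to 9796 to 24166 and 1706 to 9107, and their part in the result was not tested. The count shared with 20 days was 20 members, all 20 in the same direction. The matching share over all genes was not computed, and both comparisons came from the same model. Cyp4ac2 was between 10.4 and 31.0 CPM in the non-Smurfs, with a median of 14.3, and between 1.60 and 8.26 in the Smurfs, with a median of 3.87 (log2FC -2.03 ± 0.38, adjusted p = 0.00096). Here Cyp4ac3 was called higher, with 0.75 ± 0.18 (adjusted p = 0.006), 3.21 to 4.75 CPM in non-Smurfs and 4.61 to 10.2 in Smurfs. This made the Cyp4ac array the one array with called members in both directions at that age. Cyp4p1 did not overlap, with 23.2 to 34.5 CPM in non-Smurfs and 50.1 to 66.9 in Smurfs (log2FC 1.00 ± 0.16, adjusted p = 0.00054). Cyp18a1 had a log2FC of -0.97 ± 0.21 (adjusted p = 0.0036), with 15 to 34.1 CPM in non-Smurfs and 7.57 to 18 in Smurfs.

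At 40 days 0 of 76 members were called by edgeR, against 0.0475% of all genes, and 15 members had an unadjusted p under 0.05. DESeq2 called 1, Cyp317a1, with a log2FC of 0.46 and an adjusted p of 0.025, and its share over all genes was not computed. The smallest adjusted p in edgeR was also that of Cyp317a1, with 0.45 ± 0.12 (adjusted p = 0.13). Cyp4p1 had 0.54 ± 0.16 (adjusted p = 0.17), with 29.0 to 52.8 CPM in non-Smurfs and 38.7 to 84.6 in Smurfs, and Cyp6a8 1.99 to 3.16 and 2.67 to 13.8 CPM. For Cyp4ac2 the ranges were 6.78 to 20.9 and 6.78 to 24.8 CPM, and for Cyp6g1 154 to 243 and 134 to 291, so that the states overlapped in both genes. Without the 40-day non-Smurf 1d-o, 2 members were called.

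Smurfs of 40 days were then compared with Smurfs of 20 days, in a fit of the 16 Smurfs. The 40-day Smurfs held 2 samples of 5 hours and the 20-day Smurfs 0, so age and collection time were partly mixed. Among the 40-day Smurfs were the 3 samples that lay nearer to the non-Smurf mean (5h-c7, 5h-c8 and 1d-p). Of 75 members tested, 31 were called, or 41.3%, against 17.6% of all genes, and 30 of them were higher at 40 days, against 10.5% of all genes higher and 7.06% lower. The median log2FC of the members was 0.51, and that of all genes 0.01. In 15 of the 16 arrays at least 1 member was higher. In 0 arrays was a member lower, as the only member called lower lies outside the arrays. Of the 23 members that were lower in Smurfs at 20 days, 14 were higher in 40-day than in 20-day Smurfs. Both calls use the 20-day Smurfs, so this overlap is not independent, and the matching share over all genes was not computed. The single decrease was that of Cyp6u1, with -0.16 ± 0.05 (adjusted p = 0.048), and this call was lost in 14 of 16 fits without a sample, with an adjusted p of at most 0.14.

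Cyp4ac2 rose from 2.17, 2.25, 4.16 and 4.20 CPM to between 6.78 and 24.8 with a median of 10.3, a log2FC of 1.91 ± 0.48 (adjusted p = 0.017). Cyp4ac1 rose from 7.43 to 10.4 CPM at 20 days to 22.5 to 37.3 at 40 days (1.58 ± 0.23, adjusted p = 0.0018), and Cyp6g1 from 39.3 to 95.8 to 134 to 291 (1.40 ± 0.29, adjusted p = 0.0089). In none of these did the ages overlap. Cyp6t3, known from ecdysone synthesis, had 1.70 ± 0.49 (adjusted p = 0.029). It had few counts, and its call was lost in 5 of 16 fits without a sample. Cyp9h1 had 1.36 ± 0.26 and Cyp28d1, known for nicotine resistance, 1.06 ± 0.26. Cyp12a4 rose by 0.77 ± 0.11 (adjusted p = 0.0015), from 52.5 to 73.8 CPM to 94.7 to 129. Midgut markers summed to 896 to 1584 CPM in 20-day Smurfs and to 1219 to 3578 in 40-day Smurfs, and 3 of 8 were called higher, with a median log2FC of 1.21. Fat body markers summed to 2503 to 5812 and 3595 to 20242 CPM. The highest sums of the 40-day Smurfs, 13672 to 20242 CPM, were those of 5h-c7, 5h-c8 and 1d-p. All 5 fat body markers had a log2FC above 0, with a median of 1.33, and 0 were called by edgeR, with 3 at an unadjusted p under 0.05. Of the oenocyte markers, 2 of 3 were called higher. Their part in the result was not tested. The count of 31 was lower by more than 1.5 times without any of 3 Smurf samples, namely 12 without 20-day 1d-d, 16 without 20-day M-4 and 17 without 40-day 5h-c8, and it was 3 in the 1-day samples alone.

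In the fit of the 16 non-Smurfs, 8 of 75 members were called between 20 and 40 days, or 10.7%, against 1.89% of all genes, with 7 higher (1.57% of all genes were higher) and 1 lower (0.322% of all genes were lower). Cyp309a1 rose from 8.38, 10.4, 11.5 and 11.6 CPM to between 14.6 and 25.4, with a median of 24.2, a log2FC of 1.10 ± 0.16 (adjusted p = 0.004). Cyp4p3 rose from 16.1, 16.1, 18.7 and 19.5 to between 28.4 and 46.1 CPM (1.08 ± 0.14, adjusted p = 0.0022). Neither gene overlapped between the ages, and both kept their call whichever single sample was left out. The other increases were Cyp6d2 at 1.26 ± 0.30, Cyp9b1 at 0.96 ± 0.23, Cyp309a2 at 0.96 ± 0.23, Cyp4p1 at 0.80 ± 0.15 and Cyp6a9 at 0.48 ± 0.10, and each lost its call in at least 3 of 16 fits without a sample. Cyp313a1 fell by 1.15 ± 0.25 (adjusted p = 0.03), from 21.1, 27.6, 28.4 and 36.9 CPM to between 8.18 and 19.9. Its call was lost in 5 of 16 fits without a sample and in the model of 6 groups. It was also lost without the mixed samples and in the 1-day samples alone. The 40-day non-Smurfs held 2 samples of 5 hours and the 20-day non-Smurfs 0, so age and collection time were partly mixed. Between 5 hours and 1 day in non-Smurfs, DESeq2 called Cyp313a1 lower at 5 hours (log2FC -0.76, adjusted p = 0.0014).

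**Figure D4:**
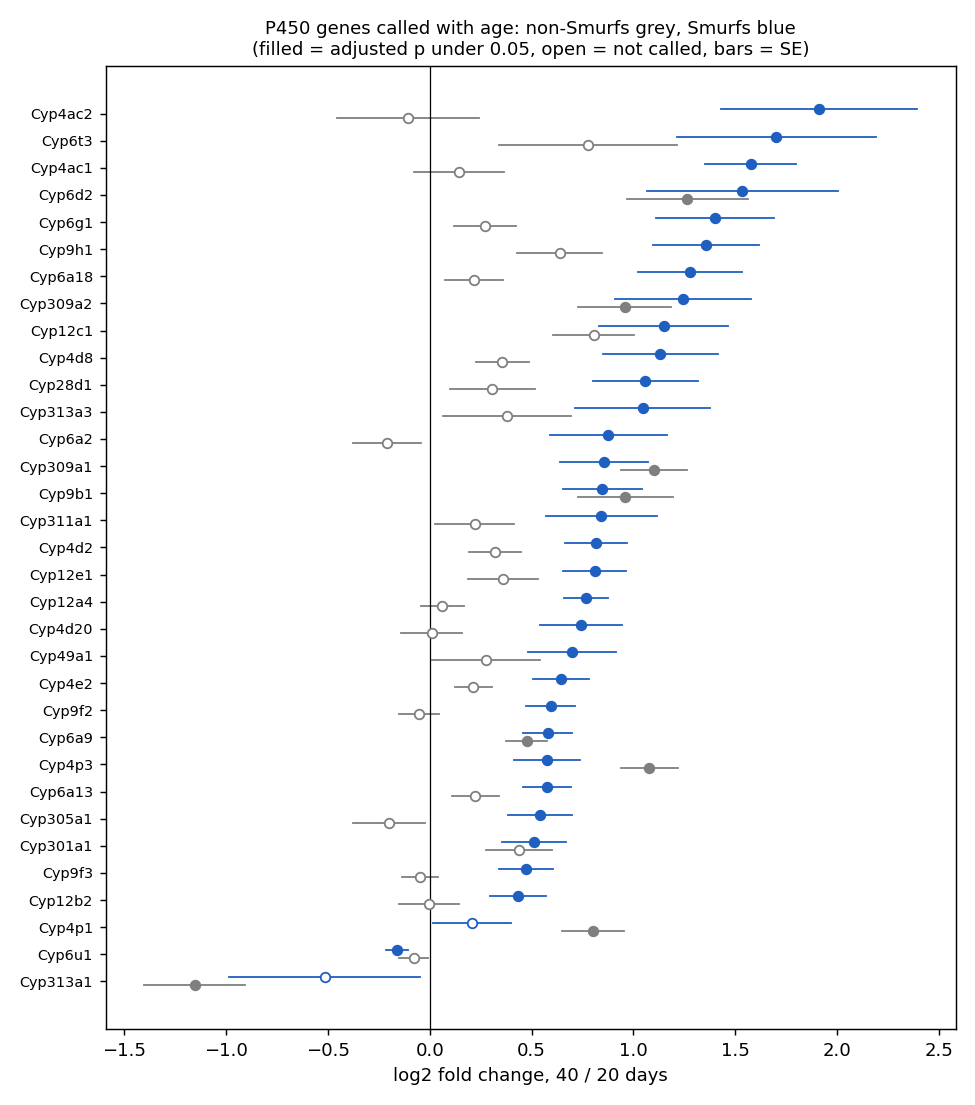
log2 fold change of 40 over 20 days (x axis) within non-Smurfs (grey) and within Smurfs (blue) for the 33 P450 genes called in either, with bars for the SE. Filled points are called and open points are not, and 6 genes are filled and above 0 in both states.

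Of the 8 members called with age in non-Smurfs, 6 were higher at 40 days in Smurfs too, namely Cyp309a1, Cyp309a2, Cyp4p3, Cyp6a9, Cyp6d2 and Cyp9b1. The matching share over all genes was not computed. In Cyp309a1 and Cyp4p3 the level in Smurfs was above that in non-Smurfs at 20 days and the levels of both states were higher at 40 days. Cyp313a1 went the other way, being lower in Smurfs and lower in older non-Smurfs, and its log2FC with age in Smurfs was -0.52 ± 0.47 (adjusted p = 0.46).

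**Figure D5:**
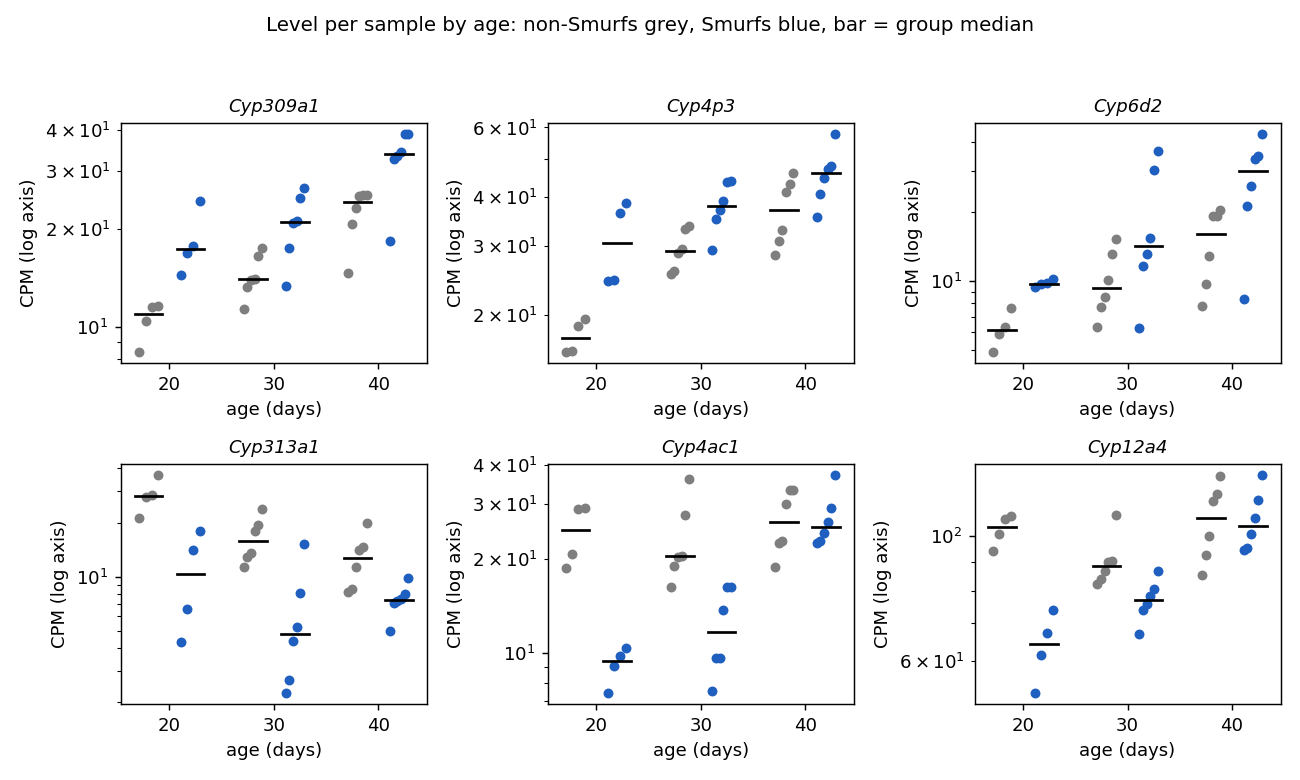
CPM per sample (log axis) of 6 P450 genes by age, with non-Smurfs in grey, Smurfs in blue and a bar at the group median. Cyp4ac1 and Cyp12a4 are lower in Smurfs than in non-Smurfs at 20 days, and at 40 days their ranges overlap.

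The difference between the Smurf effect at 40 and at 20 days was tested itself as an interaction. Of 76 members 2 were called, or 2.63%, against 0.256% of all genes, and for both the Smurf effect was higher at 40 days (0.218% of all genes were higher and 0.038% lower). For Cyp4ac1 the log2FC of Smurfs over non-Smurfs was -1.41 at 20 days and 0.01 at 40 days, a difference of 1.42 ± 0.32 (adjusted p = 0.049). For Cyp12a4 it was -0.69 and 0.01, a difference of 0.69 ± 0.15 (adjusted p = 0.049). Both calls were close to the threshold and were lost in 27 and 24 of 32 fits without a sample. DESeq2 called 8 members, Cyp12a4 and Cyp4ac1 among them, and its share over all genes was not computed. The other 6 that DESeq2 called were Cyp4e1, Cyp6g1, Cyp4s3, Cyp4ac2, Cyp9f2 and Cyp6a18.

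Samples labelled 5 hours and 1 day were compared at 30 and 40 days, with age as a factor, 4 samples against 6 in each state. In Smurfs 0 of 74 members were called by edgeR, against 0% of all genes, 7 members had an unadjusted p under 0.05, and DESeq2 called 0. In non-Smurfs edgeR called 0 of 76 members, against 0.0883% of all genes, with 13 at an unadjusted p under 0.05. There DESeq2 called 4, Cyp6a22 higher at 5 hours and Cyp4g15, Cyp305a1 and Cyp313a1 lower, and its share over all genes was not computed. The Smurf effect did not differ between 5 hours and 1 day for any member at the adjusted threshold in edgeR or DESeq2. In edgeR 0% of all genes were called, and 5 of 76 members had an unadjusted p under 0.05.

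The counts of calls changed with the samples that were included. Over all ages 34 members were called, and 20 without the 6 mixed samples, 20 in the 18 samples of 1 day alone, 0 in the 8 samples of 5 hours alone and 41 without the 40-day samples. Of the 8 samples of 5 hours, 4 are among those that lay nearer to the other state. Of the 34 calls, 27 held whichever of the 32 samples was left out, and the other 7 were Cyp12b2, Cyp28a5, Cyp4ac1, Cyp4ad1, Cyp4d8, Cyp4p3 and Cyp6d5. At 20 days the count of 30 became 15 without Smurf M-4, 16 without Smurf 1d-d, 18 without non-Smurf 1d-a, 18 without non-Smurf 1d-b and 9 without the mixed samples. In non-Smurfs the count of 8 with age became 2 without the 20-day samples M-1 or 1d-b, 3 without the 20-day samples 1d-a or 1d-c or the 40-day 5h-c5, 4 without the 40-day 1d-n or 1d-o and 5 without the 30-day M-7 or 1d-i.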

How the data were processed

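RNA-Seq of 32 samples was used. Whole-fly poly(A) RNA was made into stranded libraries (TruSeq), and the authors deposited counts of reads per gene, not normalized. The submitters' processing notes name FastQC, HISAT2, featureCounts and the build BDGP6. Strand and multi-mapping settings of the counting are not given in the sources used here. Of the deposited table, 0 columns of values were left unused and 0 rows named no gene.

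Symbols, exons and positions came from the BDGP6 annotation of Ensembl release 115, joined by gene ID, which need not be the release used for counting. The members and the gene lists were chosen with earlier results of these data known.

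Counts were analysed in R 4.3.3 with edgeR 4.0.16 (filterByExpr, TMM, glmQLFit, glmQLFTest) and called at a Benjamini-Hochberg adjusted p under 0.05 over all genes tested. The SE is the absolute log2FC divided by the square root of F. All p-values are two-sided. Levels are CPM with TMM factors, and log2 CPM has a prior count of 2. Comparisons at 1 age and the interaction used a model of 6 groups over all 32 samples, ageing was fitted within a state, and the 5-hour comparisons had age as a factor. Named genes were the called members whose average level reached 0 log2 CPM, limited to the 10 largest increases and the 10 largest decreases per comparison, all calls where fewer than 5, and members with a well known role. Other called members are named to complete a group.

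Alternatives were other size factors, DESeq2 1.42.0, no or a strict filter (at least 10 counts in every sample), subsets by collection time, covariates, and each sample left out, in 296 fits. The output of these fits was kept for the members only, so no share of all genes stands beside their counts. One alternative, without the 40-day samples, was chosen after seeing the data. The procedure was tested on simulated data. Figures were drawn with matplotlib 3.10.9.

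All 72 pairs of samples within a group differed beyond sampling noise, with a chi-square per degree of freedom between 6.79 and 117, so each was counted as a replicate. The labels do not say that the samples of a group came from separate cultures, so p-values measure the spread between these samples only.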

Additional observations from a re-analysis of the deposited data

Results flagged for a closer look

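Each of 39 P450 genes was scanned for a highest or lowest sample far from the others in each of 6 groups, which gave 16 such samples in 234 groups. Chance alone gives about 1 in 20 groups. In Smurfs of 40 days, 1d-r was high in Cyp12a5 (73.1 CPM, others 22.9 to 32.0) and in Cyp6a9 (76.9 CPM, others 45.3 to 53.2). The eye markers of 1d-r summed to 4161 CPM, those of 1d-q to 626 and those of the other 40-day Smurfs to between 2096 and 2699, and their part in these values was not tested. Smurf 5h-c7 was low in the neighbours Cyp309a1 (18.4 CPM, others 32.8 to 39.1) and Cyp309a2 (9.89 CPM, others 21.3 to 29.1). In Smurfs of 30 days, M-10, the sample labelled 32 days, was high in the neighbours Cyp4p1 (66.9 CPM, others 50.1 to 55.6) and Cyp4p2 (27.4 CPM, others 16.0 to 18.8). Smurf 1d-j of that age was high in Cyp6g1 (142 CPM, others 60.9 to 76.9) and Cyp6a18 (20.8 CPM, others 8.47 to 11.2), both of which were lower in Smurfs as a group. The same sample had the highest marker sums of the 30-day Smurfs for fat body (9107 CPM, others 1706 to 4619), midgut (2136 CPM, others 945 to 1560), haemocytes (128 CPM, others 21.6 to 63.6) and oenocytes (344 CPM, others 178 to 326), and their part in these values was not tested.

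Among non-Smurfs of 40 days, M-13 was low in Cyp6a8 (1.99 CPM, others 2.84 to 3.16) and Cyp9b1 (7.89 CPM, others 15.4 to 19.1), 1d-o was low in Cyp6a19 (307 CPM, others 418 to 491), and 5h-c5 was high in Cyp12d1-d (0.379 CPM, others 0.167 to 0.230). Among those of 30 days, 1d-h was high in Cyp12a4 (109 CPM, others 82.4 to 90.3) and Cyp4d1 (5.77 CPM, others 2.28 to 3.18), and 5h-c1 was low in Cyp9h1 (6.90 CPM, others 11.1 to 13). At 20 days, 1d-c was low in Cyp4g1 (4429 CPM, others 5436 to 5654).

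In 2 genes the Smurf effect differed between 40 and 20 days by an interaction test, with a difference in log2FC of 1.42 for Cyp4ac1 and 0.69 for Cyp12a4.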

How the results depend on the processing

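Over 131 called results of single P450 genes, 860 of 1047 alternative values other than leaving out a sample kept direction and call, 184 kept direction only and 3 reversed. Of 3568 values with a sample left out, 3140 kept their call, 428 lost it and 0 reversed.

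Without the mixed samples the count of called members was 20 over all ages, 9 at 20 days, 15 at 30 days, 4 with age in non-Smurfs, 19 with age in Smurfs and 0 for the interaction. With the 1-day samples alone it was 20 over all ages and 3 with age in Smurfs. With the 5-hour samples alone it was 0 over all ages. There Cyp6a2 (0.15), Cyp4d1 (0.027), Cyp4g1 (0.33), Cyp4ad1 (0.27) and Cyp12b2 (0.057) reversed to a log2FC above 0, from below 0 in all samples. Of the 34 members called over all ages, 3 reversed in this way and 31 kept their direction without a call. In that subset 4 of 8 samples lay nearer to the other state. DESeq2 called 1 at 40 days, 8 for the interaction and 4 between 5 hours and 1 day in non-Smurfs, and its share over all genes was not computed. The interaction gave 0 without a filter, 0 with at least 10 counts in every sample and 1 with collection time as a covariate, and ageing in non-Smurfs gave 5 in a model of 6 groups. The cause of these changes was not tested, and the subsets also hold fewer samples.

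With each sample left out in turn, the count ranged from 28 to 41 over all ages, 15 to 31 at 20 days, 21 to 34 at 30 days, 0 to 2 at 40 days, 2 to 10 with age in non-Smurfs, 12 to 33 with age in Smurfs and 0 to 3 for the interaction. Replicate names pair no samples, since each occurs once, but Smurfs and non-Smurfs share collection events, and with the event (age and collection time) as a block 44 members were called over all ages. Members of few counts, such as Cyp6t3 and Cyp12d1-d, are limited by depth.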
